A study of Mus musculus with 24 samples.

Results

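The livers compared here were those of mice that had received either of 2 different small interfering RNAs (siRNAs) against Keap1, siKeap1-1 or siKeap1-2. They were taken as labelled, 8 arrays of siKeap1-1 and 8 of siKeap1-2, which are 16 of the 24 arrays of the series. The remaining 8 arrays, from mice given the scrambled siControl, served to place each gene and to share the estimate of the spread. All mice were male C57BL6/J mice that ate a high-fat Western diet with 6% sucrose in the drinking water from an age of 8 weeks. Each mouse received 1 mg per kg of its chemically modified siRNA in lipid nanoparticles through the tail vein every week for 7 weeks. Liver RNA was hybridised to Affymetrix Mouse Genome arrays, 1 array per mouse. The methods state that each group held fed and fasted mice, but the labels do not say which array came from which, so the feeding state stays within the spread of every group. The nanoparticles carry siRNA mainly to hepatocytes, whereas whole liver was measured, so a lower signal from fewer cells of a type cannot be told apart from less RNA per cell. The use of a pair of siRNAs with different sequences asks which changes go with the depth of Keap1 suppression and which with a single siRNA.

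Keap1 is the adaptor through which a Cul3 ubiquitin ligase marks the transcription factor Nrf2 for degradation. When Keap1 is low, Nrf2 accumulates, enters the nucleus and, paired with a small Maf protein, binds antioxidant response elements near genes of glutathione metabolism, NADPH supply, detoxification and drug export. An siRNA guides the Argonaute protein Ago2 to the matching messenger RNA, and besides its intended target it can lower other transcripts that pair with the first bases of the guide strand, as a microRNA does. A difference between siRNAs against the same gene can therefore come with unequal potency or with effects of a single sequence.

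The values are log2 signals, so a difference of 1 is a fold of 2, and the probe set with the strongest mean signal stood for each of the 18193 genes measured. The median log2 signal of an array lay between 5.84 and 5.96 in both siRNA groups. Correlations across probe sets lay between 0.990 and 0.996 among the siKeap1-1 arrays, between 0.992 and 0.996 among the siKeap1-2 arrays, and between 0.989 and 0.996 across the siRNAs. The 17 measured hepatocyte markers had a mean log2 signal between 13.68 and 13.86 on the 16 arrays, near the top of the scale. The 18S ribosomal RNA control probe set did not differ between the siRNAs beyond its spread (difference 0.05, exact permutation test, two-sided, p = 0.784). Within siKeap1-1 it lay between 10.17 and 10.44 on arrays 1 to 3 and between 11.17 and 11.43 on arrays 4 to 8, without an overlap. siControl split at the same numbers in the opposite direction, with 10.34 to 10.77 on arrays 1 to 3 and 8.86 to 9.54 on arrays 4 to 8. Within siKeap1-2 these sets of arrays overlapped. The hybridisation spike BioB was at 8.90 on siKeap1-2 array 4 and between 9.77 and 10.50 on the other 15 arrays.

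The target itself was measured first. Keap1 (probe set 1450746_at, chromosome 9) had a lowest, median and highest log2 signal of 7.21, 7.47 and 7.93 with siKeap1-1, against 8.03, 8.23 and 8.59 with siKeap1-2 and 9.33, 9.57 and 10.03 with siControl. The 3 groups did not overlap, and every siKeap1-1 array was below every siKeap1-2 array. On the linear scale the mean Keap1 signal was 77.1% below siControl with siKeap1-1 and 61.2% below it with siKeap1-2. The mean with siKeap1-1 was 58.9% of that with siKeap1-2, a log2 difference of -0.76 ± 0.11 (SE of the limma fit, n = 8 arrays per group, adjusted p = 0.00093). An exact permutation test over all 12870 splits gave p = 0.00016 for each pair of groups, the smallest that 8 against 8 arrays allow. A dim second Keap1 probe set (1450747_at) gave means of 5.04, 5.02 and 5.46 with siKeap1-1, siKeap1-2 and siControl. It fell with both siRNAs and did not separate them (difference 0.02, exact permutation p = 0.848). Averaged over both probe sets, the Keap1 difference was -0.37 with an adjusted p = 0.0814 by limma.

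**Figure D1:**
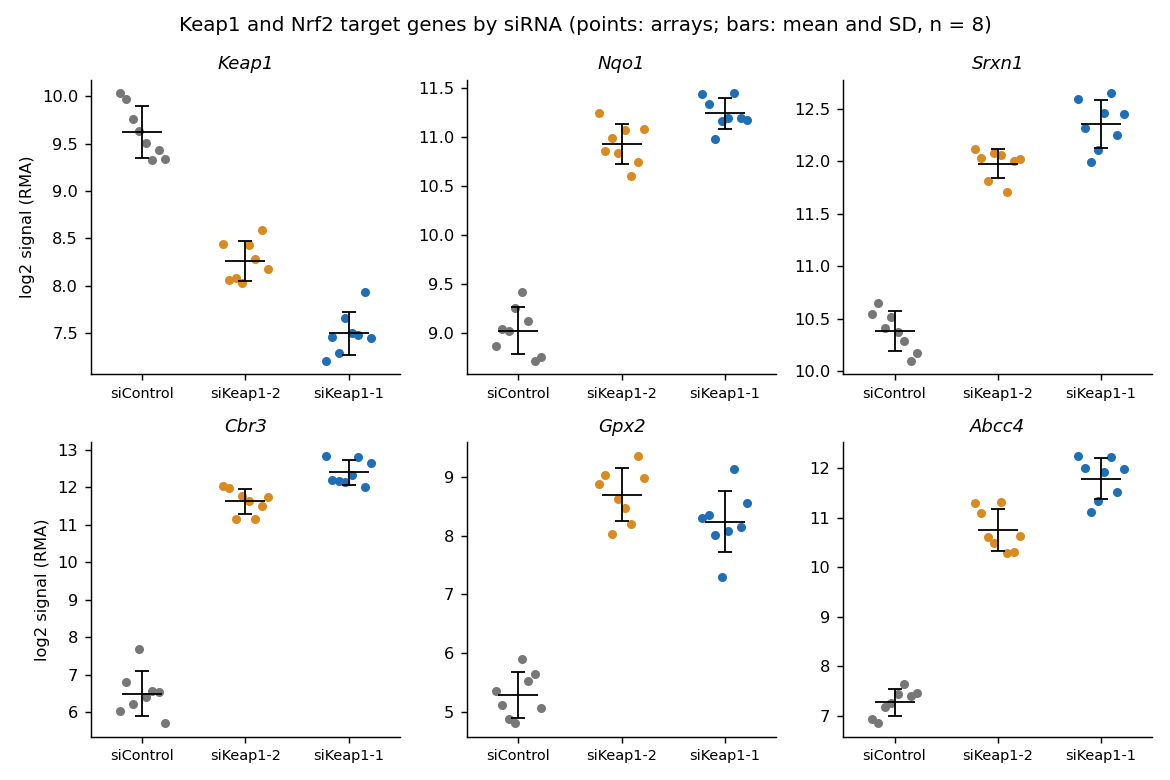
Log2 signal (RMA) of Keap1 and 5 Nrf2 target genes on each array (points) by siRNA, with the mean and SD of 8 arrays per group (bars). Keap1 separates all 3 groups, whereas Nqo1, Srxn1, Cbr3, Gpx2 and Abcc4 lie far above siControl with both siRNAs and overlap between them.

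Between the siRNAs, 51 of 18193 genes passed an adjusted p of 0.05 (0.280%, limma with Benjamini-Hochberg adjustment). Of these, 27 were higher with siKeap1-1 (0.148% of the genes tested) and 24 higher with siKeap1-2 (0.132%). In comparison with siControl the same fit called 1883 genes with siKeap1-1 (10.4%) and 1335 with siKeap1-2 (7.34%). At an unadjusted p under 0.05, 1750 of the 18193 genes differed between the siRNAs, 1188 higher with siKeap1-1 and 562 with siKeap1-2. Of all genes, 56.8% had the higher mean with siKeap1-1. The sizes of the 51 differences ran from 0.21 to 2.27 with a median of 0.54, and the median SE over all genes was 0.092. A fold over 2 with an unadjusted p under 0.01 was reached by 20 genes (0.110%), 13 higher with siKeap1-1 and 7 with siKeap1-2, of which 7 also passed the adjusted p. On 39 genes (0.214%) the 8 values with siKeap1-1 and the 8 with siKeap1-2 did not overlap, 20 above and 19 below, and 26 of the 51 called genes were among them. Fits of other kinds did not return all of the same genes, with 39 of the 51 called from the 16 siRNA arrays alone, 44 with the replicate block and 33 when each gene was averaged over its probe sets.

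In 15 of the 51 genes, Keap1 itself among them, both siRNAs lay on the same side of siControl and siKeap1-1 lay farther from it. That is 29.4% of the called genes, against 41.3% of all genes. In 7 genes (13.7% against 35.8%) siKeap1-2 lay farther out on the same side. In 29 genes, 56.9% of the called ones against 22.9% of all genes, the means of the siRNAs lay on opposite sides of the siControl mean. The call requires the siRNAs to lie apart, which favours opposite sides, so these shares are descriptions.

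**Figure D2:**
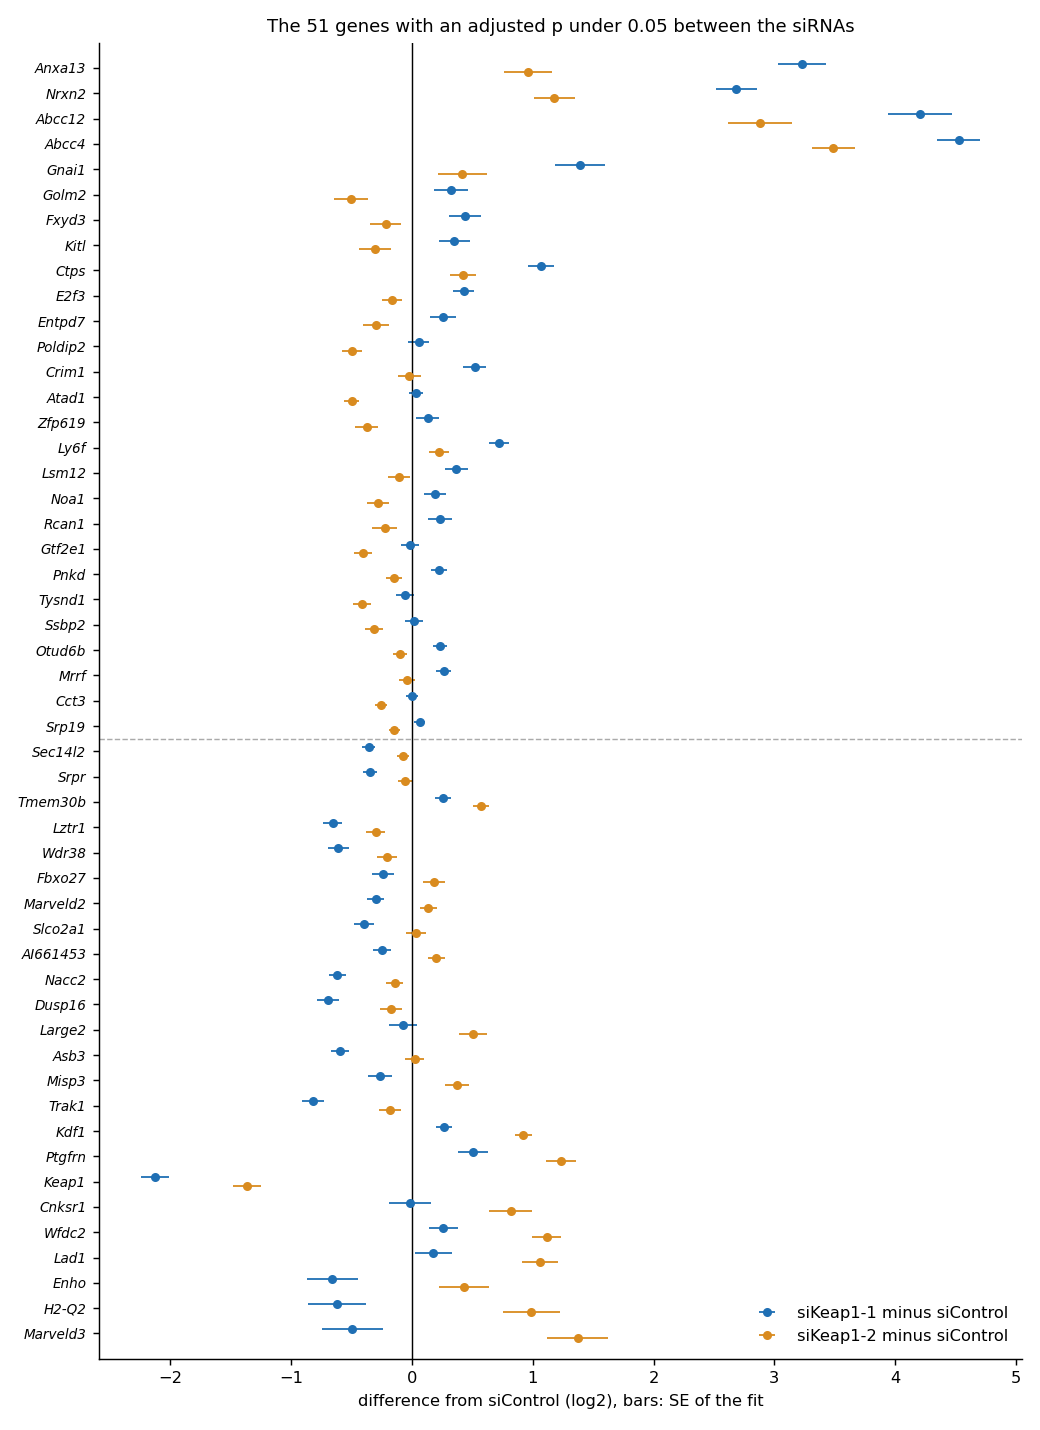
Difference from siControl on the log2 scale (horizontal axis, bars are the SE of the fit) with siKeap1-1 and with siKeap1-2 for the 51 called genes, ordered by the difference between the siRNAs. Anxa13, Nrxn2, Abcc12 and Abcc4 lie above siControl with both siRNAs and farther with siKeap1-1, whereas Marveld3, H2-Q2 and Enho at the bottom lie on opposite sides of 0.

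The largest difference in either direction among the called genes was that of Anxa13, an annexin of intestinal and ductal epithelium that binds membranes in a calcium-dependent way. Its lowest, median and highest log2 signals were 9.08, 9.82 and 10.38 with siKeap1-1, 6.84, 7.61 and 7.90 with siKeap1-2, and 5.80, 6.48 and 7.46 with siControl. The siRNA groups were more than 1 log2 unit apart at their nearest arrays, and siKeap1-2 overlapped with siControl. Anxa13 was higher with siKeap1-1 by 2.27 ± 0.20 (adjusted p = 5.72e-07, limma), and it exceeded siControl by 3.23 with siKeap1-1 and by 0.96 with siKeap1-2, both past the threshold.

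Nrxn2, a neurexin known as an adhesion molecule of nerve terminals, was the next among the called genes higher with siKeap1-1, with 7.83, 8.68 and 9.29 with siKeap1-1, 6.85, 7.13 and 7.65 with siKeap1-2, and 5.66, 5.99 and 6.24 with siControl. None of the 3 groups overlapped, and the difference between the siRNAs was 1.51 ± 0.17 (adjusted p = 2.01e-05, limma). Within siKeap1-1, Nrxn2 was at 9.14 or above on arrays 1 to 3 and at 8.76 or below on arrays 4 to 8, the split also seen in the 18S control. Within these sets, against the siKeap1-2 arrays of the same numbers, the Nrxn2 difference was 1.91 (adjusted p = 0.012) and 1.26 (adjusted p = 0.0108, limma). With the 18S signal as a covariate it was 1.51. The siRNA groups differ in mean 18S signal by 0.05 only, so that fit could hardly move the Nrxn2 difference. A dimmer Nrxn2 probe set, 1455499_at, gave a difference of 0.06.

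The other called genes that exceeded 1 log2 unit in this direction were transporters of the ATP-binding cassette family. Abcc4 (Mrp4), an exporter of conjugates and cyclic nucleotides at the sinusoidal face of the hepatocyte, had 11.11, 11.96 and 12.25 with siKeap1-1, 10.28, 10.62 and 11.32 with siKeap1-2, and 6.84, 7.33 and 7.65 with siControl. It was far above siControl on all 16 arrays, and the siRNA groups overlapped at their edges. The Abcc4 difference was 1.04 ± 0.18 (adjusted p = 0.00484, limma). Abcc12, a less studied relative, had 8.51, 9.31 and 9.73 with siKeap1-1, 7.29, 7.82 and 8.55 with siKeap1-2, and 3.64, 4.99 and 6.35 with siControl, with a difference of 1.32 ± 0.26 (adjusted p = 0.0174). Without siKeap1-2 array 2, Abcc12 missed the threshold narrowly (adjusted p = 0.0513). Of the 14 measured efflux transporters these were the 2 called, against 51 of all 18193 genes (0.280%). The list had a median difference of 0.09 against 0.02 over all genes, and Abcb1b had a difference of 0.41 that did not pass (adjusted p = 0.46, limma).

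Among the other genes that rose with siKeap1-1 against siControl and were called between the siRNAs was Ctps, CTP synthase of pyrimidine metabolism. It had 9.16, 9.36 and 9.78 with siKeap1-1, 8.35, 8.87 and 8.99 with siKeap1-2, and 7.94, 8.35 and 8.71 with siControl, without an overlap of the siRNA groups (difference 0.64 ± 0.11, adjusted p = 0.00367). Gnai1, an inhibitory G protein subunit, had 10.59, 10.96 and 11.40 with siKeap1-1 against 8.80, 10.19 and 10.74 with siKeap1-2 and 9.25, 9.64 and 9.79 with siControl. The Gnai1 call (0.97 ± 0.20, adjusted p = 0.0294) was lost without siKeap1-1 array 1, 6 or 8 and without siKeap1-2 array 5 (highest adjusted p = 0.072), and its second probe set, 1434440_at, gave 1.13. E2f3, a transcription factor of the cell cycle, was 0.59 ± 0.08 higher with siKeap1-1 (adjusted p = 0.000487), and Fxyd3, a regulator of the sodium pump, 0.66 ± 0.13 (adjusted p = 0.0174). Both exceeded siControl with siKeap1-1 (by 0.43 and 0.44) and were close to it with siKeap1-2 (-0.16 and -0.22, neither past the threshold). Crim1, a membrane protein that binds bone morphogenetic proteins, Ly6f, Lsm12, Otud6b, Mrrf and Pnkd likewise passed against siControl with siKeap1-1 alone, with differences of 0.54, 0.49, 0.48, 0.33, 0.30 and 0.37, the Mrrf call being lost without any of 8 arrays, and the Pnkd and Lsm12 calls with the mean over probe sets. In all, 14 of the 27 genes passed the threshold above siControl with siKeap1-1 and 5 with siKeap1-2, the 5 being Anxa13, Nrxn2, Abcc12, Abcc4 and Ctps.

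Another 9 of these 27 genes passed the threshold below siControl with siKeap1-2 and did not pass against siControl with siKeap1-1. Atad1, an ATPase that removes misplaced proteins from the outer mitochondrial membrane, had 10.60, 10.81 and 10.91 with siKeap1-1, 10.01, 10.27 and 10.49 with siKeap1-2, and 10.60, 10.79 and 10.85 with siControl. Every siKeap1-2 array lay below every array of the other 2 groups. The Atad1 difference was 0.53 ± 0.06 (adjusted p = 2.01e-05, limma), and a second probe set, 1417555_at, gave 0.66. Poldip2, a mitochondrial and nuclear binding partner of DNA polymerase delta, had 11.29, 11.71 and 12.00, then 11.02, 11.11 and 11.32, and 11.50, 11.58 and 11.84 in the same order of groups (0.55 ± 0.08, adjusted p = 0.001). Its second bright probe set, 1450727_a_at, differed by 0.13 and was not called. Cct3, a subunit of the cytosolic chaperonin, was 0.26 ± 0.05 lower with siKeap1-2 than with siKeap1-1 (adjusted p = 0.0142), and 2 of its other probe sets, 1416024_x_at and 1459987_s_at, were called as well, with 0.28 and 0.35. The Atad1, Golm2 and Gtf2e1 calls were lost when the probe sets of a gene were averaged, and the Cct3 call was lost with the 16 siRNA arrays fitted alone and with the replicate block. Golm2, a Golgi membrane protein, was 0.82 ± 0.14 lower with siKeap1-2 than with siKeap1-1 (adjusted p = 0.00373), and with siKeap1-2 it fell by 0.50 on the log2 scale from siControl. With siKeap1-1 it was 0.32 above siControl without passing (adjusted p = 0.144), and 7 of the 8 siKeap1-1 arrays lay above the highest siControl array. The remaining 5 were Gtf2e1 of general transcription factor TFIIE, the peroxisomal protease Tysnd1, Ssbp2, Zfp619 and Srp19 of the signal recognition particle, with differences between 0.21 and 0.50. Of these, Tysnd1, Ssbp2 and Srp19 lost their call without any of 10, 12 and 5 of the 16 arrays. Kitl (stem cell factor), Entpd7, Noa1 and Rcan1 differed by 0.66, 0.55, 0.47 and 0.46 and passed against siControl with neither siRNA. Kitl lost its call without siKeap1-2 array 2 (adjusted p = 0.0513), and Rcan1 without any of 12 arrays, and the Entpd7 call was lost with the replicate block and with the mean over probe sets.

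Among the 24 genes higher with siKeap1-2, 10 passed the threshold above siControl with siKeap1-2. The largest was Marveld3, a tight junction protein, with 4.06, 5.36 and 6.10 with siKeap1-1, 6.64, 7.16 and 7.95 with siKeap1-2, and 5.27, 5.83 and 6.45 with siControl. Every siKeap1-2 array was above every other array, and siKeap1-1 overlapped with siControl. The Marveld3 difference was -1.87 ± 0.25 (adjusted p = 0.00034, limma), on a probe set near the median signal of the array. Wfdc2, a secreted epithelial protein, had 8.17, 8.51 and 8.80 with siKeap1-1, 9.12, 9.30 and 9.64 with siKeap1-2, and 7.80, 8.26 and 8.85 with siControl (difference -0.86 ± 0.12, adjusted p = 0.000487). Kdf1, known from keratinocyte differentiation, had 8.72, 8.91 and 9.28 with siKeap1-1, 9.44, 9.60 and 9.81 with siKeap1-2, and 8.62, 8.67 and 8.74 with siControl. With -0.66 ± 0.07 it had the second smallest adjusted p of all genes (7.45e-06), and its second probe set, 1417798_at, gave -0.54.

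Lad1, an anchoring filament protein of basement membranes, and Ptgfrn, a regulator of the prostaglandin F2 receptor, stood in the same order, with differences of -0.88 ± 0.15 (adjusted p = 0.0041) and -0.73 ± 0.12 (adjusted p = 0.00445). Both were separated between the siRNAs on all 16 arrays, and the Ptgfrn call was lost with the mean over probe sets. Tmem30b, a subunit of phospholipid flippases, differed by -0.32 and also passed above siControl with both siRNAs, as did Kdf1 and Ptgfrn. Dim signals with siKeap1-2 above siControl were those of Cnksr1 (difference -0.83), Misp3 (-0.63) and the glycosyltransferase Large2 (-0.58), of which Cnksr1 lost its call without any of 10 arrays and Large2 without siKeap1-2 array 2 or 5. The Tmem30b call was lost without siKeap1-1 array 3 and without siKeap1-2 array 2 or 6. H2-Q2, a class I histocompatibility gene whose probe set may also read its close relatives, had 4.33, 4.82 and 6.24 with siKeap1-1, 6.04, 6.76 and 7.17 with siKeap1-2, and 4.73, 5.67 and 6.37 with siControl. The H2-Q2 groups overlapped through siKeap1-1 array 7 (difference -1.61 ± 0.24, adjusted p = 0.000855).

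With siKeap1-1, 13 of the 24 genes passed the threshold below siControl, Keap1 among them. Asb3, a substrate adaptor of a ubiquitin ligase, had 7.46, 7.71 and 7.99 with siKeap1-1, 8.08, 8.33 and 8.48 with siKeap1-2, and 8.15, 8.26 and 8.54 with siControl. Every siKeap1-1 array lay below every other array, and siKeap1-2 overlapped with siControl (difference between the siRNAs -0.62 ± 0.08, adjusted p = 9.91e-05; siKeap1-2 minus siControl 0.02). Trak1, an adaptor that links mitochondria to motor proteins, had 10.92, 11.38 and 11.57 with siKeap1-1, 11.78, 11.99 and 12.17 with siKeap1-2, and 11.95, 12.12 and 12.36 with siControl (-0.64 ± 0.09, adjusted p = 0.000487). A bright second Trak1 probe set, 1459666_at, did not show this (difference -0.02). Nacc2, a transcriptional repressor, and Dusp16, a phosphatase of stress-activated kinases, were likewise separated on all 16 arrays, with -0.47 ± 0.07 (adjusted p = 0.000487) and -0.52 ± 0.09 (adjusted p = 0.0052). With the mean over probe sets the Trak1 and Dusp16 calls were lost. Enho, which encodes the liver peptide adropin, had 9.86, 10.80 and 11.36 with siKeap1-1, 11.27, 11.72 and 11.90 with siKeap1-2, and 10.52, 11.36 and 12.09 with siControl. Its difference of -1.09 ± 0.21 (adjusted p = 0.0125) came with -0.66 against siControl for siKeap1-1, and its probe sets 1452893_s_at and 1454585_at gave -1.12 and -0.92.

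The prostaglandin transporter Slco2a1 (-0.44), the tricellular junction protein Marveld2 (-0.43), Srpr, the receptor of the signal recognition particle (-0.29), Sec14l2, a lipid-binding protein (-0.28), Wdr38 (-0.40) and AI661453 (-0.45) also fell below siControl with siKeap1-1 and were called between the siRNAs. Lztr1, like Keap1 an adaptor of Cul3, fell with both siRNAs, by 0.65 on the log2 scale with siKeap1-1 and by 0.30 with siKeap1-2, and its call between them (-0.36, adjusted p = 0.0468) was lost without any of 11 of the 16 arrays. The F-box protein gene Fbxo27 (-0.42) passed against siControl with neither siRNA and lost its call without any of 5 arrays, as Wdr38 did without any of 10. Other probe sets existed for 31 of the 51 genes. Of these 58 other probe sets, 45 had the same sign as the brightest, 8 were called themselves, and of the 27 with a mean log2 signal of at least 6 in a siRNA group 25 had the same sign.

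**Figure D3:**
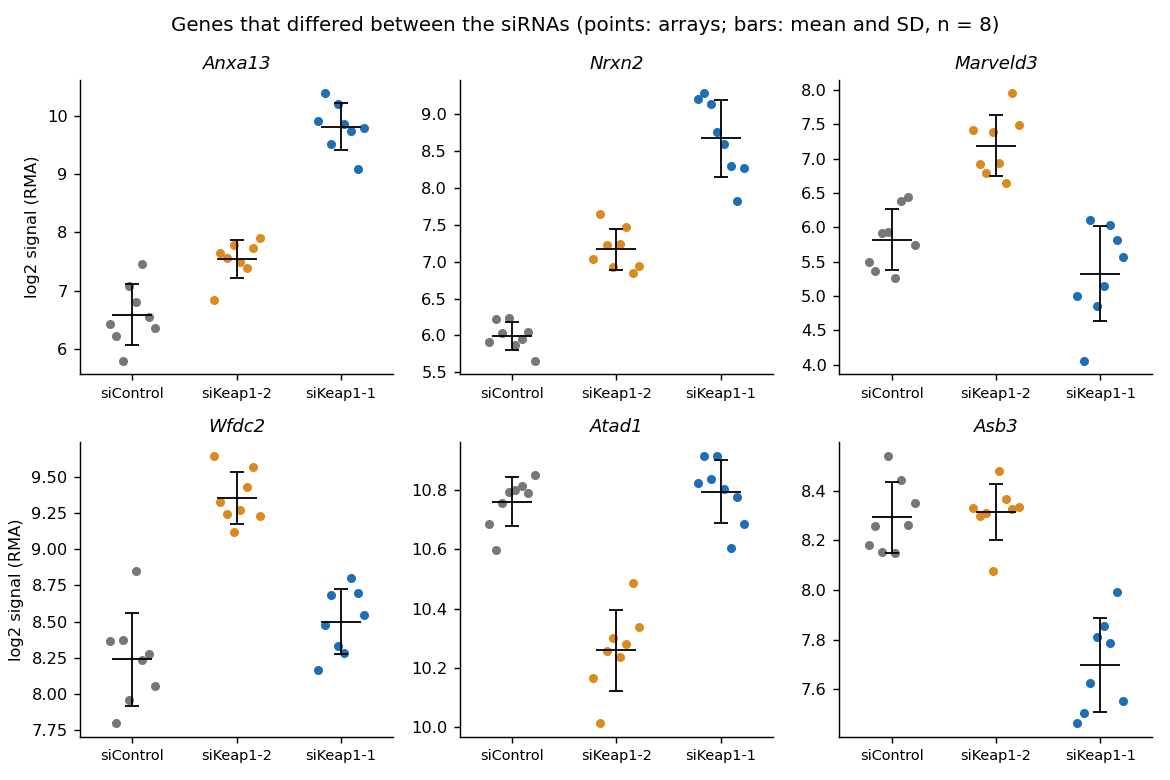
Log2 signal (RMA) of 6 genes that differed between the siRNAs, on each array (points) with the mean and SD of 8 arrays per group (bars). Anxa13 and Nrxn2 rise from siControl over siKeap1-2 to siKeap1-1, Marveld3 and Wfdc2 are raised with siKeap1-2, Atad1 is lowered with siKeap1-2, and Asb3 is lowered with siKeap1-1.

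Of 34 measured antioxidant and NADPH targets of Nrf2, 23 passed above siControl and 1 below it with siKeap1-1, and 19 passed above and 0 below with siKeap1-2. Of all 18193 genes, 958 passed above siControl and 925 below it with siKeap1-1, and 571 above and 764 below with siKeap1-2. None of the 34 targets was called between the siRNAs by limma. Nqo1, the quinone reductase that is a standard readout of Nrf2, had 10.98, 11.20 and 11.45 with siKeap1-1, 10.61, 10.93 and 11.25 with siKeap1-2, and 8.71, 9.03 and 9.42 with siControl. Both siRNA groups lay above siControl without an overlap and overlapped with each other. The Nqo1 difference was 0.31 (95% confidence interval 0.10 to 0.52, unadjusted over genes) and did not pass the adjusted threshold (adjusted p = 0.245, limma). Cbr3, a carbonyl reductase, had 12.01, 12.27 and 12.84, then 11.15, 11.69 and 12.05, and 5.71, 6.49 and 7.69 in the same order. Its difference of 0.77 (interval 0.35 to 1.19) was the largest of the list and did not pass either (adjusted p = 0.119), although with the 16 siRNA arrays fitted alone it did (adjusted p = 0.0385).

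For Srxn1 (sulfiredoxin) the difference was 0.38 (interval 0.18 to 0.57, adjusted p = 0.0928), for Blvrb (biliverdin reductase B) 0.32 (0.15 to 0.49, adjusted p = 0.11) and for Gsr (glutathione reductase) 0.24 (0.09 to 0.39, adjusted p = 0.189). Blvrb passed with the 16 siRNA arrays alone (adjusted p = 0.0382), and Srxn1 passed with array weights (adjusted p = 0.037) and without siKeap1-1 array 3 (adjusted p = 0.0352). Gclc, the catalytic subunit of glutathione synthesis, gave 0.30 (0.03 to 0.57, adjusted p = 0.452), and the glutathione S-transferases Gsta2 and Gstm3 gave 0.30 and 0.27, again without passing. Gpx2, a glutathione peroxidase, went the other way, with 7.30, 8.23 and 9.14 with siKeap1-1 against 8.03, 8.76 and 9.36 with siKeap1-2 and 4.80, 5.23 and 5.90 with siControl (difference -0.46, interval -0.90 to -0.02, adjusted p = 0.489). Cyp2b10, the target of the xenobiotic receptor CAR, varied over several log2 units within every group, and its difference of -0.09 had an interval of -1.44 to 1.27.

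Over these 34 targets, 28 had the higher mean with siKeap1-1 and 6 with siKeap1-2, and the median difference was 0.11 against 0.02 over all genes. At an unadjusted p under 0.05 there were 10 higher with siKeap1-1 and 1 higher with siKeap1-2. Over all 18193 genes these counts were 1188 and 562, and 56.8% had the higher mean with siKeap1-1. Over the 21 glutathione S-transferase genes the median was 0.06 with 18 higher with siKeap1-1. Over the 16 glucuronosyltransferases and sulfotransferases it was 0.07 with 13 higher, and over the 43 cytochrome P450 and carboxylesterase genes 0.06 with 31 higher. These lists had 0 called by limma and 2, 1 and 3 at an unadjusted p under 0.05, none a larger share than the 1750 of all 18193 genes. In the 23 measured genes that the study names, which were picked on these samples, the median was 0.09 with Keap1 as the sole call.

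A set of genes that takes no account of the difference between the siRNAs was formed from those that moved on the average of both against siControl (adjusted p under 0.05 and fold over 1.5). With 8 arrays per group the estimated average and the estimated difference are uncorrelated. Higher on average were 218 genes (1.20%) and lower 143 (0.786%). The mean 18S signal was 9.67 with siControl, against 10.91 with siKeap1-1 and 10.86 with siKeap1-2, and the 3 prime minus 5 prime signal of Gapdh was 1.31, against 1.17 with each siRNA. With the 18S signal as a covariate 217 genes moved on average in place of 361. Of the 218, 138 (63.3%) were higher with siKeap1-1, against 56.8% of all genes, and their median difference was 0.12 beside a median average rise of 0.91. Of the 143, 95 (66.4%) were lower with siKeap1-1, and their median difference was -0.09. Between the siRNAs 10 of the 218 were called (4.59% against 0.280% of all genes), 6 of them higher with siKeap1-1 (Anxa13, Nrxn2, Abcc12, Abcc4, Gnai1 and Ctps) and 4 higher with siKeap1-2 (Lad1, Wfdc2, Ptgfrn and Kdf1). Keap1 was the sole call among the 143. With a fold over 2 on average, 94 genes were higher, and their median difference was 0.20 with 64.9% higher with siKeap1-1.

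**Figure D4:**
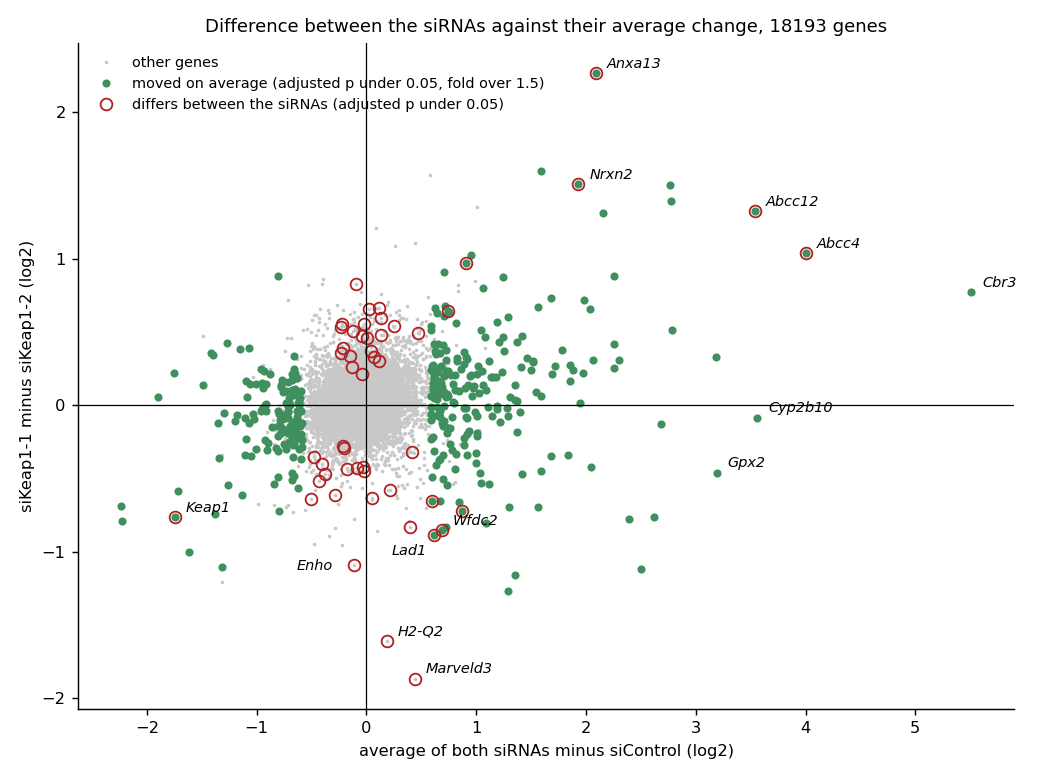
Difference between the siRNAs (vertical axis, log2) against the average of both minus siControl (horizontal axis, log2) for 18193 genes; green genes moved on average and red rings differ between the siRNAs. Most green genes lie within 1 log2 unit of 0 on the vertical axis, Cbr3 and Gpx2 with large average rises among them, and most red rings lie within the cloud of genes with a small average change.

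Abcc4 and Kdf1, called in opposite directions, both hold a match to the core of the antioxidant response element within a window that runs from upstream of a transcription start into the first bases of the transcript, and these windows are shown for that reason. Promoter sequences are those of RefSeq on GRCm38.p6, written 5′ to 3′ on the strand of the gene, with the matches in capitals. The Abcc4 window shown is chr14:118706170-118706469 on the minus strand, with the match at position -25 from the start. A second Abcc4 window, chr14:118676882-118677181, also holds a match, at position -23, and is not shown. The Kdf1 window is chr4:133518713-133519012 on the plus strand, with the match at position -220.
Abcc4: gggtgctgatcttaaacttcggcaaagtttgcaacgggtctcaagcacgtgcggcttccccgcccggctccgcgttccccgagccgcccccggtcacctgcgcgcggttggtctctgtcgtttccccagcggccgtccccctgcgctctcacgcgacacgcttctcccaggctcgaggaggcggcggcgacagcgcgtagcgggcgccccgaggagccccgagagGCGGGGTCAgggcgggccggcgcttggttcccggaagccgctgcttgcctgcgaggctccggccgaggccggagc
Kdf1: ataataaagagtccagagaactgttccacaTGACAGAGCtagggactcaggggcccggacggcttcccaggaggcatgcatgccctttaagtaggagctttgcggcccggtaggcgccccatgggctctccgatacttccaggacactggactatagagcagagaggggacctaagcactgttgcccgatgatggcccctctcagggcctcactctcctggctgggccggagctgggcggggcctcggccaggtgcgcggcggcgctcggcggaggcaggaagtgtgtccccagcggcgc

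The motif searched was TGACNNNGC on either strand (GCNNNGTCA on the other), in which N is any base. It was found in 16.2% of the 14452 tested genes that have a promoter window in the table. It was found in 2 of the 21 called genes higher with siKeap1-1 that have one (Abcc4 and Mrrf) and in 3 of the 20 higher with siKeap1-2 (Kdf1, Fbxo27 and Nacc2), which is 9.52% and 15%. Among genes higher on average the share was 18.6%, and among the antioxidant and NADPH targets 23.3%, Srxn1 included and Nqo1 not. A match is no evidence of binding, and its absence from these windows says nothing about elements farther away.

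The Keap1 signal of each array was also entered as a covariate. As the siRNA groups do not overlap in Keap1, this fit compares them beyond the range that they share. The depth of suppression and the siRNA cannot be told apart by it, whatever size a difference keeps. The median SE rose to 0.156. All 50 called genes other than Keap1 kept their sign, and their differences had a median of 94.9% of the size without the covariate. Some were much smaller, such as Gnai1 (0.39 ± 0.33), H2-Q2 (-0.96 ± 0.39) and Abcc4 (0.61 ± 0.30), and others larger, such as Crim1 (0.82 ± 0.15) and Abcc12 (1.68 ± 0.45). Anxa13 differed by 1.67 ± 0.32 in this fit, Marveld3 by -1.94 ± 0.44 and Atad1 by 0.50 ± 0.10. Kdf1 (-0.71 ± 0.12, adjusted p = 0.0328) and the magnesium channel gene Trpm6 (-0.78 ± 0.12, adjusted p = 0.0328) were the 2 calls, and Trpm6, with -0.23 and an adjusted p = 0.484 without the covariate, is named after its value was seen.

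Within each siRNA group, arrays with less Keap1 did not have detectably more of Nqo1, Cbr3, Abcc4 or Anxa13. Over these 8 relations of 8 arrays each, Pearson's r ran from -0.60 to 0.10 (smallest exact permutation p = 0.118, adjusted 0.898) and Spearman's rho from -0.64 to 0.12 (smallest exact permutation p = 0.0962, adjusted 0.769). The strongest, Cbr3 with siKeap1-1, fell from r = -0.60 to -0.04 without the 2 arrays farthest from the median of Keap1.

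Interferon-stimulated genes, which answer to foreign RNA and to interferon, were the list whose median differed most. All 46 measured members had a lower mean with siKeap1-1 than with siKeap1-2, with differences from -0.50 to -0.03 and a median of -0.25, against 0.02 over all genes. None passed the adjusted threshold by limma, and 12 had an unadjusted p under 0.05, against 1750 of 18193 over all genes. The members vary together from array to array, so that they are not 46 separate observations. The mean log2 signal of the list had a lowest, median and highest value of 9.41, 9.64 and 10.11 with siKeap1-1, 9.69, 9.93 and 10.30 with siKeap1-2, and 9.63, 9.80 and 10.30 with siControl. The groups overlapped, and the median change against siControl was -0.15 with siKeap1-1 and 0.02 with siKeap1-2. Ifitm3, which blocks entry of viruses, had 14.03, 14.14 and 14.21 with siKeap1-1, 14.22, 14.28 and 14.43 with siKeap1-2, and 14.26, 14.32 and 14.40 with siControl, without an overlap of the siRNA groups (difference -0.16 ± 0.04, adjusted p = 0.102). Ifitm3 passed when dim genes were left out (adjusted p = 0.0431), without moderation (adjusted p = 0.0101) and with a trended robust prior (adjusted p = 0.00925). Bst2 (tetherin) and the immunoproteasome subunit Psmb9 differed by -0.31 and -0.35 without passing. The list median was -0.37 on arrays 1 to 3, -0.14 on arrays 4 to 8, and between -0.29 and -0.18 when any 1 array was left out.

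Markers of immune cells had medians below 0 without a call, and their part in the interferon list was not tested. Of 21 Kupffer cell and macrophage markers, 18 had the lower mean with siKeap1-1 and 3 the higher (median -0.11). Of 22 neutrophil and lymphocyte markers 19 had the lower and 3 the higher (median -0.10). Each list had 0 called by limma and 2 at an unadjusted p under 0.05, near the share over all genes (1750 of 18193). The 2 medians were -0.26 and -0.30 on arrays 1 to 3, and -0.04 and -0.01 on arrays 4 to 8. The mean log2 signal of the Kupffer list lay between 8.60 and 9.26 on the siKeap1-1 arrays, against 8.70 to 9.62 for siKeap1-2 and 8.94 to 9.51 for siControl. The haemoglobin scavenger receptor Cd163 had 7.90, 8.60 and 9.81 with siKeap1-1 against 9.37, 9.76 and 11.10 with siKeap1-2 and 9.17, 10.94 and 11.53 with siControl. Its difference between the siRNAs was -1.11 ± 0.34 (adjusted p = 0.202, limma). Timd4 differed by -0.36, with means of 6.01, 6.37 and 7.53 with siKeap1-1, siKeap1-2 and siControl. The scavenger receptor Marco, at -0.80 ± 0.36 (adjusted p = 0.467), was at 11.17 on siKeap1-1 array 8 and between 8.86 and 9.24 on the other 7, against 9.46 to 10.62 with siKeap1-2. With siControl Marco lay between 7.25 and 10.05, and its mean of 8.59 was below those with siKeap1-1 (9.28) and siKeap1-2 (10.08). Without siKeap1-1 array 8 the Marco difference between the siRNAs was -1.07 (adjusted p = 0.178, limma). Jchain, Cd4 and Cd2 differed by -0.44, -0.26 and 0.18 without passing.

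Of 13 cholangiocyte and progenitor markers, 10 had the higher mean with siKeap1-1, with a median of 0.20. Anxa13 was the sole call, against 0.280% called over all genes. The mean log2 signal of the list lay between 8.56 and 9.10 on the siKeap1-1 arrays, against 8.33 to 8.62 for siKeap1-2 and 8.29 to 8.64 for siControl. Anxa13, with a difference of 2.27, enters this mean, so a part of the gap is that of a single gene. The mean without Anxa13 was not computed. Epcam, the epithelial adhesion molecule of bile ducts, had 6.69, 7.10 and 7.41 with siKeap1-1, 5.97, 6.55 and 6.92 with siKeap1-2, and 6.51, 6.81 and 7.27 with siControl (difference 0.60 ± 0.14, adjusted p = 0.0599). It passed in 4 alternatives, 3 of which left out a single array (siKeap1-1 array 6, siKeap1-2 array 5 or 8). Cd24a differed by 0.37 (adjusted p = 0.436). Endothelial markers had a median of 0.12 with 14 of 16 higher with siKeap1-1, among them Cdh5 (0.27), Lyve1 (0.64) and Tek (0.20). The endothelial median was -0.09 on arrays 1 to 3 and 0.22 on arrays 4 to 8. Stellate cell and matrix markers had a median of 0.01, with Vim at 0.14, Dcn at -0.19 and Ecm1 at -0.10. Hepatocyte markers had a median of -0.01, with Ahsg at -0.10, Hpd at -0.06 and F2 at -0.05. None of these 3 lists held a call by limma, with 2, 0 and 0 genes at an unadjusted p under 0.05, against 1750 of 18193 over all genes.

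Genes of metabolism had 0 calls by limma in each of 6 lists. At an unadjusted p under 0.05 the lists held 0, 2, 3, 1, 5 and 0 genes in the order given here, against 1750 of 18193 over all genes. The medians were 0.06 for the 21 genes of cholesterol synthesis (Idi1 0.25, Mvd 0.34, Hmgcs1 0.10), -0.08 for the 24 of fatty acid synthesis and desaturation (Elovl2 -0.27, Fads2 -0.38, Fads1 -0.31) and -0.02 for the 35 of lipid uptake and storage. In the last list the droplet protein Cidea had 5.70, 7.67 and 9.43 with siKeap1-1 and 4.77, 5.95 and 8.99 with siKeap1-2, and its difference of 1.60 ± 0.54 did not pass (adjusted p = 0.28). The adipogenic receptor Pparg differed by 0.36 (adjusted p = 0.274) and Fitm1 by 0.35. For the 34 PPAR alpha targets the median was -0.05 (Bdh1 -0.22, Ppara -0.14, Cyp4a31 -0.96), for the 38 genes of glucose and glycogen metabolism -0.01, and for the 23 of bile acids 0.01 (Cyp7b1 0.14, Slc51a 0.17, Hsd3b7 -0.08). Phkb, a subunit of the kinase that starts glycogen breakdown, had 9.82, 9.93 and 10.08 with siKeap1-1, 9.39, 9.60 and 9.80 with siKeap1-2, and 8.97, 9.31 and 9.62 with siControl. The siRNA groups did not overlap in Phkb, and its difference of 0.34 ± 0.08 missed the threshold (adjusted p = 0.0759, limma). It passed with the 16 siRNA arrays alone (adjusted p = 0.0273), without dim genes (0.0431), with array weights (0.0396) and with the first residual component as a covariate (0.0438). That component comes from values centred within each group, so it changes the SE and not the difference. Slc2a1 and Ldha differed by 0.29 and -0.19.

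The 29 genes of the endoplasmic reticulum stress response had a median of 0.11 with 22 higher with siKeap1-1, led by the chaperone genes Sdf2l1 (0.63), Pdia4 (0.46) and Hspa5 (0.21). That median was 0.21 on arrays 1 to 3 and 0.03 on arrays 4 to 8. An unadjusted p under 0.05 was reached by 6 of the 29 genes, against 1750 of 18193 over all genes. Medians were 0.06 for 19 p53 targets (Aen 0.19, Perp -0.12, Phlda3 0.21), 0.03 for 29 cell cycle genes (Rrm1 -0.23, Bub1 0.44, Tk1 -0.23), -0.07 for 19 clock genes (Ciart -0.41, Dbp -0.26, Clock 0.15) and -0.03 for 32 acute phase and inflammatory genes. Of the last list, Orm3 differed by 0.88 and Saa3 by -0.90 with wide overlaps. None of these lists held a call by limma, and at an unadjusted p under 0.05 they held 5, 0, 1 and 2 genes. The 21 genes of the RNA interference machinery, through which both siRNAs act, had a median of 0.01 with Ago2 at 0.19, Dicer1 at 0.15 and Ago1 at -0.15, with 0 calls by limma and 2 genes at an unadjusted p under 0.05. Of the 16 partners and regulators of Keap1 and Nrf2, Keap1 was the sole call, with Pgam5 at 0.16 and Trim21 at -0.22.

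**Figure D5:**
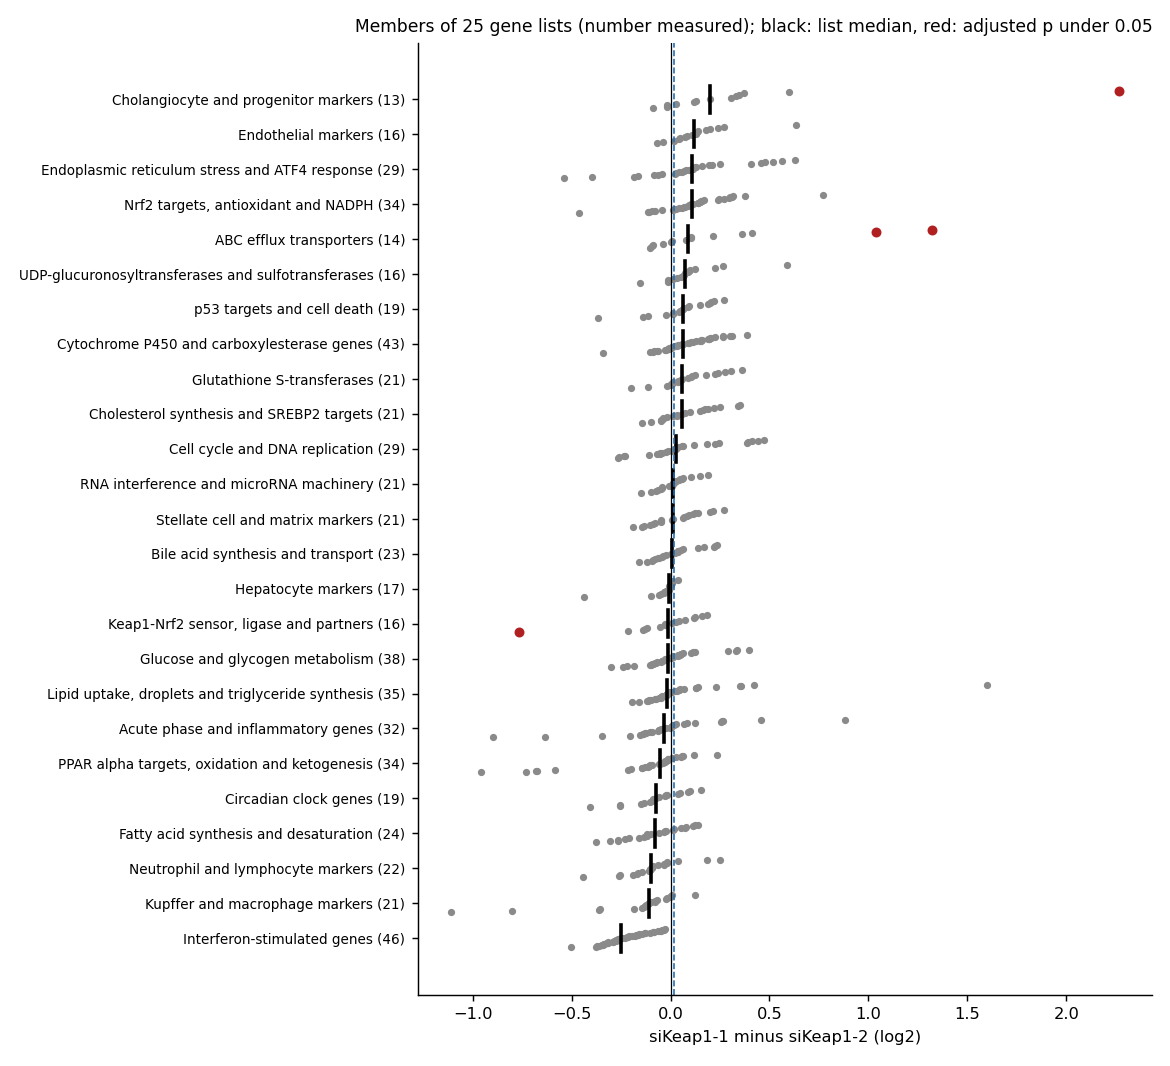
Difference between siKeap1-1 and siKeap1-2 (horizontal axis, log2) for every measured member of 25 gene lists (points), with the median of each list (black bars) and of all genes (dashed line). Red points passed the adjusted threshold, and all 46 interferon-stimulated genes lie below 0.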

How the data were processed

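Liver RNA of 24 mice was measured on Affymetrix mouse genome arrays. The authors deposited log2 signals from RMA, which corrects the background, brings arrays to a common distribution and summarises the probes of a set. No version of that software is given in the sources used here. Of 45101 probe sets, 64 controls were left out, and of the 45037 tested 34945 name 1 gene, 932 several and 9160 none in the annotation of the platform. For each of 18193 genes the brightest of the probe sets naming it alone (mean of 24 arrays) was kept, and 9010 genes have several. A single limma fit (version 3.58.1, R 4.3.3) of the 3 groups gave the contrasts, adjusted by the Benjamini-Hochberg method. Exact permutation tests were two-sided. The procedure was tested on simulated data. Figures were drawn with matplotlib 3.10.9.

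The members, the lists and the tests were chosen with earlier results of these data known. Genes named are Keap1, the 12 largest called differences in each direction, up to 3 members of each of 26 lists with the smallest p, and the known targets Nqo1, Gclc, Gsr, Cbr3, Gpx2, Gsta2, Gstm3, Abcc4 and Cyp2b10. The other 27 called genes and Trpm6 were named after their values were seen. Nothing says whether mice shared a cage or were processed together, and the number of arrays limits the precision. Alternatives covered the arrays in the fit, the replicate block, normalization, centring, dim genes, probe sets, moderation, array weights, covariates and each array left out.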

Additional observations from a re-analysis of the deposited data

Results flagged for a closer look

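In groups of 8 arrays, an array was marked where its gap to the nearest of the others exceeded, as a share of the range of its group, the critical value of Dixon for 8 arrays. Of 384 groups tested over the named genes 26 held such an array, and chance marks about 1 group in 20. The gap as a share of the range and the log2 values were as follows.

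With siKeap1-1 there were 9 such values. They include Ppara on array 4 (highest at 11.94, share 0.593), Pdia4 on array 3 (highest at 9.75, share 0.542) and Sdf2l1 on array 3 (highest at 10.32, share 0.582). Marked as well were Dbp on array 3 (lowest at 11.95, share 0.599), Marco on array 8 (highest at 11.17, share 0.834) and Nacc2 on array 2 (lowest at 8.80, share 0.591). A gap was also found for Srpr on array 7 (highest at 12.13, share 0.562), Srp19 on array 3 (highest at 12.02, share 0.551) and Cct3 on array 3 (highest at 13.34, share 0.566).

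With siKeap1-2 there were 9 such values. They include Cnksr1 on array 2 (highest at 6.55, share 0.538), Asb3 on array 4 (lowest at 8.08, share 0.553) and Mgst2 on array 2 (lowest at 4.53, share 0.543). Marked as well were Ifitm3 on array 7 (highest at 14.43, share 0.621), Psmb9 on array 3 (lowest at 9.83, share 0.566) and Cyp7b1 on array 1 (lowest at 13.13, share 0.704). A gap was also found for Cd163 on array 7 (highest at 11.10, share 0.535), Dcn on array 4 (lowest at 10.32, share 0.726) and Ly6f on array 2 (highest at 4.20, share 0.561).

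With siControl there were 8 such values. They include H2-Q2 on array 6 (lowest at 4.73, share 0.530), Entpd7 on array 2 (highest at 8.89, share 0.561) and Gsta2 on array 6 (highest at 11.97, share 0.557). Marked as well were Slc51a on array 4 (highest at 4.04, share 0.765), Phlda3 on array 7 (highest at 5.63, share 0.618) and Bub1 on array 4 (highest at 5.02, share 0.602). A gap was also found for Vim on array 4 (highest at 12.37, share 0.698) and Pnkd on array 2 (lowest at 10.30, share 0.616).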

How the results depend on the processing

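Leaving out each siRNA array in turn gave 41 to 63 called genes, 17 to 23 past a fold of 2 and p of 0.01, 3 to 5 calls in the lists, 333 to 388 genes moved on average, and a Keap1 difference of -0.83 to -0.72. Of the 51 called genes 37 kept their call in all 16 of these fits, and the other 14 lost it in at least 1. The 16 siRNA arrays alone gave 53 calls (39 of them among the 51), renewed quantile normalization 58 (48), centring 49 (47), dim genes left out 63 (37 of 37 measured), the mean over probe sets 36 (33), all probe sets 73 (44), no moderation 52 (47), a trended robust prior 53 (50) and array weights 74 (50). Lost with the 16 arrays alone were Cct3, Cnksr1, Fbxo27, Gnai1, Kitl, Lsm12, Lztr1, Mrrf, Rcan1, Srp19, Ssbp2 and Tysnd1. Lost with the mean over probe sets were Atad1, Dusp16, Entpd7, Fbxo27, Golm2, Gtf2e1, Keap1, Kitl, Lsm12, Lztr1, Pnkd, Ptgfrn, Rcan1, Srpr, Ssbp2, Trak1, Tysnd1 and Wdr38. Counts that moved by over 1.5 times were 120 genes with the first residual component (19.6% of the residual variance) as a covariate, and 2 with the Keap1 signal, where SEs were larger. The residual component, drawn from values centred within each group, changes the SEs and not the differences. Calls in the lists, 4 in the report, were 7 with the 16 arrays alone, 7 with the residual component and 0 with the Keap1 signal. Past a fold of 2 there were 8 genes without dim genes and 12 with the mean over probe sets. Genes moved on average, 361 in the report, were 128 with a fold over 2, 234 without dim genes, 217 with the 18S signal and 132 with the Keap1 signal. The Keap1 difference with the mean over probe sets was -0.37 (adjusted p = 0.0814), where the dim probe set enters. Other causes were not tested.

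The labels do not say whether replicate numbers pair the samples, and the values showed no clear pairing. Residuals of same-numbered siKeap1-1 and siKeap1-2 arrays correlated between -0.11 and 0.31, with 2 of 8 pairs over 0.1, and 1 of 8 arrays correlated best with its own number. With the replicate block 51 genes were called, 44 of them among the 51 of the report, and Cct3, Cnksr1, Entpd7, Gnai1, Large2, Mrrf and Wdr38 were lost. Fits on sets of arrays were chosen after seeing the 18S values. Arrays 1 to 3 alone gave 4 calls, 33 genes past a fold of 2, 1 call in the lists, 104 genes moved on average and a Keap1 difference of -0.88 (adjusted p = 0.21). Arrays 4 to 8 alone gave 5 calls, 13 past a fold of 2, 1 in the lists and a Keap1 difference of -0.70 (adjusted p = 0.0541), and both sets hold fewer arrays. siKeap1-1 arrays 1 to 3 against all siKeap1-2 arrays gave 151 calls, and arrays 4 to 8 gave 35. Some list medians changed sign between arrays 1 to 3 and arrays 4 to 8. They include cholesterol synthesis (0.24 and -0.07), fatty acid synthesis (0.12 and -0.14), PPAR alpha targets (-0.28 and 0.03) and cell cycle (0.16 and -0.05). The endothelial, bile acid (-0.08 and 0.03) and lipid uptake (-0.06 and 0.05) medians did so as well.

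Of 4161 values of single genes under the alternatives 25 changed sign, none of them of a called gene. With the Keap1 signal as a covariate these were Trim21 0.029, Bst2 0.035, Ahsg 0.037, Cd4 0.030, Cd2 -0.068, Dcn 0.26, Tek -0.17, Gclc -0.065 and Gstm3 -0.063. Cyp2b10 lay between -0.31 and 0.12 when 1 array was left out, and was above 0 without siKeap1-1 array 6, 7 or 8 and without siKeap1-2 array 1, 4 or 5. On arrays 1 to 3 alone Sult3a1 was -0.26, Cd2 -0.066 and Cyp2b10 0.76. On arrays 4 to 8 alone Hmgcs1 was -0.033, Mvd -0.096, Ecm1 0.011 and Dcn 0.069. Against all siKeap1-2 arrays, siKeap1-1 arrays 1 to 3 gave Sult3a1 -0.029 and Cyp2b10 0.58, and arrays 4 to 8 gave Dcn 0.032.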

Other observations

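Tested as single probe sets, 73 were called between the siRNAs (adjusted p under 0.05 over 45037, limma), and 10 of them name no single gene. The largest of these, 1426887_at, had mean log2 signals of 7.66 with siKeap1-1, 5.87 with siKeap1-2 and 4.49 with siControl, a difference of 1.79 ± 0.30. A further 11 belong to genes whose brightest probe set was not called. Fam110c (-0.82), the sialyltransferase gene St6galnac2 (-0.92) and the noncoding RNA Malat1 (-0.51) were higher with siKeap1-2. Zfp982 (1.54), the glycogenin gene Gyg (0.55), Pum3 (0.49), the noncoding RNA Tug1 (0.47), the sialic acid synthase gene Nans (0.46), Elf5 (0.41), the interleukin receptor subunit gene Il1rap (0.41) and Strbp (0.38) were higher with siKeap1-1. These genes are named after their values were seen.

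Of the 20 genes past a fold of 2 with p under 0.01, 13 missed the adjusted threshold. Among these 13 were the actin bundler gene Pls1 (-1.12, adjusted p = 0.0807), the membrane protease gene Tmprss4 (-1.27, adjusted p = 0.0742), the angiotensin receptor gene Mas1 (-1.16, adjusted p = 0.179), Meig1 (1.31, adjusted p = 0.0839) and Usp50 (1.39, adjusted p = 0.0982), all raised over siControl on the average of both siRNAs.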
